A study of Rattus norvegicus with 10 samples.

Results

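Insulin granule cargo and prohormone processing were followed in adult rat β-cells after siRNA against Scrt1, over 10 genes. The list held the hormone genes Ins1, Ins2 and Iapp, the convertases Pcsk1 and Pcsk2 with their binding proteins Pcsk1n and Scg5, the carboxypeptidase gene Cpe, and the granins Chga and Chgb. These were 10 of the 23918 genes with values in the table, each was found by its symbol, and each was represented by 1 transcript. The β-cells came from islets of adult Sprague-Dawley rats and were separated by fluorescence-activated cell sorting on their autofluorescence. Both groups were transfected with Lipofectamine RNAiMAX and harvested 48 h later. The siScrt1 group (genotype label siSCRT1) received a pool of 4 siRNAs against rat Scrt1, and the siCtrl group (label Control) received the negative control reagent. Each group comprised 5 libraries, named siCtrl replicates 1 to 5 and siScrt1 replicates A to E, and the table gives A to E the numbers 1 to 5. The study used this knockdown to ask which transcripts of sorted adult β-cells depend on Scrt1, a zinc-finger repressor of the Snail superfamily. Nothing in the labels said whether libraries came from separate animals, so that p-values measure the spread between these libraries.

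β-cells make insulin as preproinsulin, which is folded and oxidised in the endoplasmic reticulum and packed as proinsulin into secretory granules. In the granule, the proprotein convertases PC1/3 (from Pcsk1) and PC2 (from Pcsk2) cut at paired basic residues and carboxypeptidase E (from Cpe) removes the exposed basic residues. Islet amyloid polypeptide, the product of Iapp, is stored and released with insulin and is cleaved from its precursor by the same enzymes. The rat carries both a retroposed insulin gene, Ins1, and the ancestral gene, Ins2. The chaperone 7B2 (from Scg5) helps proPC2 to mature, proSAAS (from Pcsk1n) binds and inhibits PC1/3, and the granins chromogranin A and B aggregate with cargo in the acidic granule.

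The promoters of the hormone genes are shown because Scrt1 binds E-box sequences, as do activators of the insulin genes. The sequences are the 250 bases before the start of the gene in the RefSeq annotation of GRCr8, which held an entry for 8 of the 10 genes (Pcsk1 and Chga were without one), and are written 5′ to 3′ on the strand of the gene. Capitals mark CATCTG, an E box of the kind bound by Neurod1 with E-proteins, TAATG, which carries the TAAT core bound by homeodomain factors such as Pdx1, and CACCTG, the reverse complement of the Snail-family core CAGGTG. The Ins1 window lies at chr1:261185869-261186118 on the plus strand, the Ins2 window at chr1:207273806-207274055 on the minus strand and the Iapp window at chr4:176967847-176968096 on the plus strand.
Ins1: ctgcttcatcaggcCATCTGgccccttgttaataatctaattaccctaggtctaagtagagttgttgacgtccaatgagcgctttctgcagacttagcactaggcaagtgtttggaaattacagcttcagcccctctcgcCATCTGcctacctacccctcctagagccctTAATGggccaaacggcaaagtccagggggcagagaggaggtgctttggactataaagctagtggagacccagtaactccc
Ins2: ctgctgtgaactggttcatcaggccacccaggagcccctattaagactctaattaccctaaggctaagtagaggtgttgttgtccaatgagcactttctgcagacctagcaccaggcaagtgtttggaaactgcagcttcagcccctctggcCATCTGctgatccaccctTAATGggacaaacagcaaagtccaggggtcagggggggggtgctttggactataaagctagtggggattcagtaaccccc
Iapp: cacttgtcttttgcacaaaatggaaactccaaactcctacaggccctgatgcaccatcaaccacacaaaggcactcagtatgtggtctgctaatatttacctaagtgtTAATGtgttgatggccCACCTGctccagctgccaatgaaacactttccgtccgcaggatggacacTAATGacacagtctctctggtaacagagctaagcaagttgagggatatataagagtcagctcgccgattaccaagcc

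The insulin promoters were much alike, with 205 identical bases among 238 aligned (86.1%). Both carried TAATG 80 bases before the start and CATCTG close upstream of it, at 110 bases in Ins1 and 98 bases in Ins2, and Ins1 had a further CATCTG at 236 bases. Searched on both strands, CATCTG was present in 4 of the 8 promoters (Ins1, Ins2, Chgb and Scg5) and in 14.0% of the 33469 promoters of the same length, and TAATG was present in 4 of 8 (Ins1, Ins2, Iapp and Chgb) and in 26% of all. The core CAGGTG was found in 3 of 8 promoters, those of Iapp (126 bases before the start), Cpe (205 bases) and Scg5 (54 bases), against 15.9% of all promoters. The longer Scrt1-type letters CAACAGGTG, which contain that core, were in none of the 8 and in 0.176% of all. CAGGTG and CATCTG are both forms of the general E box CANNTG, which occurred in 7 of the 8 promoters and 65.5% of all. The cores in Cpe and Scg5 are shown with their flanks, for Cpe within chr16:29796457-29796706 on the plus strand and for Scg5 within chr3:121042796-121043045 on the minus strand. A match of letters is a description of these windows and not a measured binding site.
Cpe: tagctgtcattcCACCTGcgtggtccctgg
Scg5: gaaggtttctccCACCTGctgggggcgggg

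Depth ranged from 11901342 to 17444034 recovered reads per library, which are the deposited scaled counts divided by what 1 read was worth in that library. Levels are given as CPM, recovered reads scaled to a fixed library total, and levels of different genes are compared as TPM, which also divides by transcript length. Scrt1 itself was at 14.6, 11.7, 14.0, 18.2 and 11.9 CPM in siCtrl replicates 1 to 5 and at 5.55, 4.24, 4.28, 2.24 and 1.57 CPM in siScrt1 replicates A to E. The groups did not overlap, and the log2 fold change was -2.06 (SE 0.308, adjusted p = 0.00618 in limma, over 12941 genes), with an adjusted p of 0.062 once both libraries numbered 4 were left out. Another 3 genes with AABR07 identifiers took 3.35% to 13.9% of reads, most of all in siCtrl replicate 1 and siScrt1 replicate A, and 0 of the 10 genes passed the test with or without these libraries. Across all genes tested, 136 had an adjusted p under 0.05, which is 1.05% of them. The β-cell markers Pdx1, Nkx6-1, Mafa, Slc2a2 and Ucn3 summed to between 3358 and 3907 CPM in siCtrl and between 3310 and 3999 CPM in siScrt1. Most of the sum was Slc2a2, with a mean of 2407 CPM in siCtrl and 2222 CPM in siScrt1. The means of Pdx1 (198 and 246 CPM), Mafa (429 and 539 CPM) and Nkx6-1 (257 and 282 CPM) were higher in siScrt1. Ucn3 had 375 and 374 CPM, so that the sum hides group means that differ in opposite directions. In limma the adjusted p was 0.176 for Pdx1, 0.437 for Mafa and 0.363 for Nkx6-1, and that of Slc2a2 is not given here.

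The 10 genes together took 11.6% to 18.1% of all reads in a library, and Ins1 and Ins2 alone took 8.88% to 15%. By mean TPM over the 10 libraries, the order was Ins1 (238889), Ins2 (188257), Iapp (28735), Cpe (2572), Scg5 (987), Chga (901), Pcsk2 (822), Pcsk1 (438) and Chgb (357). Ins1 ranked first and Ins2 second among all genes in every library, Iapp lay between rank 3 and rank 7, and Cpe between rank 21 and rank 23. The step from each of these to the next gene was seen in 10 of 10 libraries, at a median ratio of 1.26 from Ins1 to Ins2, 6.73 from Ins2 to Iapp and 11.3 from Iapp to Cpe. Lower in the order the neighbours were not separated beyond their spread, since Scg5 exceeded Chga in 7 of 10 libraries, Chga exceeded Pcsk2 in 7 of 10 and Pcsk1 exceeded Chgb in 8 of 10. Pcsk2, which codes for the convertase that needs 7B2, exceeded Pcsk1 in 10 of 10 libraries, by 1.77 times at the median. The deposited effective length is the transcript length less 199 bases, so that the short transcripts of Ins1 (445 bases), Ins2 (446 bases) and Iapp (466 bases) gain most in TPM. With CPM divided by the full transcript length, the median ratio from Iapp to Cpe was 7.13, and Scg5 exceeded Chga in 5 of 10 libraries.

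The insulin genes varied more between libraries than between groups. Ins1 (ENSRNOG00000012052) was at 55411, 48617, 82005, 71031 and 60090 CPM in siCtrl replicates 1 to 5 and at 54985, 75541, 70956, 74728 and 64894 CPM in siScrt1 replicates A to E. Ins2 (ENSRNOG00000020405) had 38347, 40185, 67744, 55408 and 45743 CPM in the siCtrl libraries and 38776, 61565, 53278, 64856 and 55542 CPM in the siScrt1 libraries. For both genes siCtrl replicate 3 was the highest of all libraries, siScrt1 replicate A was the lowest of its group, and the groups overlapped. The log2 fold change was 0.15 for Ins1 (SE 0.298, 95% interval -0.49 to 0.80, limma adjusted p = 0.893) and 0.19 for Ins2 (SE 0.289, 95% interval -0.43 to 0.82, limma adjusted p = 0.853). These intervals run from 0.711 to 1.74 times the siCtrl level for Ins1 and from 0.741 to 1.76 times for Ins2. Leaving out siCtrl replicate 2 gave 0.04 for Ins1 and 0.10 for Ins2, and leaving out siCtrl replicate 3 gave 0.28 and 0.34. With the library number as a block the limma intervals were narrower, from -0.23 to 0.54 for Ins1 and from -0.19 to 0.58 for Ins2. The residual SD changed less, from 0.271 to 0.268 for Ins1 and from 0.323 to 0.295 for Ins2. The limma SE also draws on a variance trend with level over all genes. The narrower intervals are therefore no measure of spread removed by the block. Among same-numbered libraries, Ins2 was higher in siScrt1 in 4 of 5 pairs on CPM and on scaled counts, whereas Ins1 was higher in 3 of 5 on CPM and in 4 of 5 on scaled counts. Reads of the near-identical insulin transcripts were split between them by the aligner, and in 5 of 10 libraries the read number of each was not whole.

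**Figure D1:**
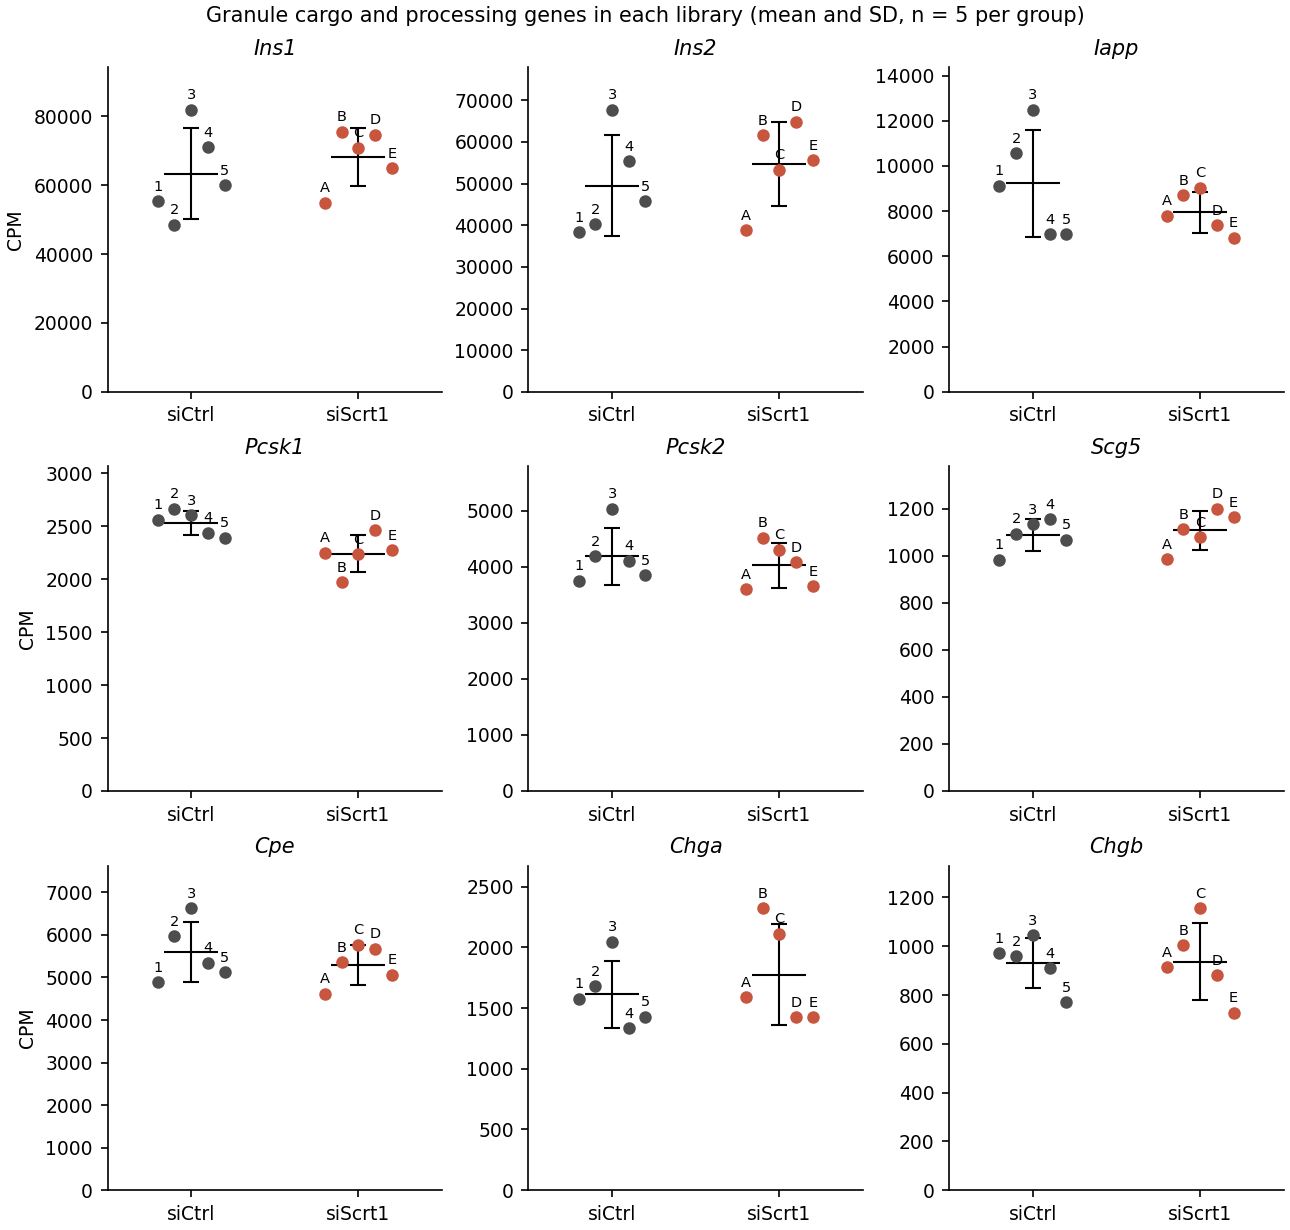
Level of the 9 detected genes in each library, in CPM (vertical axes start at 0); points are libraries marked by replicate, and the black bars are the group mean and SD (n = 5 per group). The groups overlap for every gene; siCtrl replicate 3 is the highest library for Ins1, Ins2, Iapp, Pcsk2 and Cpe, and 4 of the 5 siScrt1 points of Pcsk1 lie below the lowest siCtrl point, 2395 CPM.

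Iapp (ENSRNOG00000012417), the amyloid-forming companion hormone, had the opposite sign to insulin and did not pass the test. Its level was 9124, 10553, 12496, 6981 and 6985 CPM in siCtrl replicates 1 to 5 and 7799, 8714, 9029, 7379 and 6820 CPM in siScrt1 replicates A to E. The siCtrl libraries spanned the whole range of the siScrt1 libraries except for replicate E, the lowest of the 10. The log2 fold change was -0.15 (SE 0.197, 95% interval -0.58 to 0.27, limma adjusted p = 0.826), and without siCtrl replicate 3 it was -0.0083.

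Of the convertases, Pcsk1 had the lowest p-value among the 10 genes, and Pcsk2 lay close to equality. Pcsk1 (ENSRNOG00000011107), the gene of PC1/3, was at 2565, 2666, 2606, 2439 and 2395 CPM in the siCtrl libraries and at 2251, 1972, 2237, 2462 and 2274 CPM in the siScrt1 libraries. All siScrt1 values but that of replicate D lay below every siCtrl value, and replicate D lay above siCtrl replicates 4 and 5. When group means of CPM were compared gene by gene with the exact permutation test (two-sided, unadjusted), p was 0.0238 (n = 5 each). With the same test it was 0.0397 on scaled counts and 0.0556 on TPM. Pcsk1 was the only one of the 9 detected genes with such a p under 0.05 on CPM. The share of all genes under 0.05 in this exact test is not given here. Without that share, 1 of 9 is no result about Pcsk1. In limma, which is another test on another scale, 11.1% of all genes had an unadjusted p under 0.05. In limma across all genes its log2 fold change was -0.15 (SE 0.0887, 95% interval -0.34 to 0.04, unadjusted p = 0.122, adjusted p = 0.578), so that it did not pass the test. On scaled counts Pcsk1 was lower in siScrt1 in 5 of 5 same-numbered pairs, by 0.003 to 0.30 on the log2 scale, on CPM it was lower in 4 of 5, and with the number as a block its limma adjusted p was 0.347. Pcsk2 (ENSRNOG00000005438), the gene of PC2, ran from 3756 to 5039 CPM in siCtrl (median 4108) and from 3600 to 4523 CPM in siScrt1 (median 4082), and its log2 fold change was -0.02 (SE 0.126, 95% interval -0.29 to 0.25, limma adjusted p = 0.974). The read numbers of Pcsk1, Pcsk2 and Chga were whole in 0 of 10 libraries, so that part of their reads was shared out between transcripts, whereas those of Iapp, Cpe, Chgb and Scg5 were whole in 10 of 10.

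Of the convertase partners, 1 was steadily expressed and 1 was listed at 0. Scg5 (ENSRNOG00000007542), which codes for 7B2, was at 983, 1093, 1133, 1156 and 1068 CPM in the siCtrl libraries and at 984, 1112, 1078, 1200 and 1164 CPM in the siScrt1 libraries. It was the steadiest of the 10 genes, with a residual SD of 0.0896 on the log2 scale, which is at percentile 8.52 of all genes tested, and its log2 fold change was 0.06 (SE 0.0744, 95% interval -0.10 to 0.22, limma adjusted p = 0.809). Pcsk1n (ENSRNOG00000007112), which codes for proSAAS, was listed at 0 in all 10 libraries, which allows at most 3 reads in a library, or 0.172 to 0.252 CPM at these depths. It shared this with 5271 of the 23918 genes (22.0%), and it entered no test. The gene is known to be expressed in islet endocrine cells, and neither the transcript reference nor the assignment of reads to this entry was checked here, so that the limit holds for reads assigned to the entry and is no statement on the level of the mRNA. Limits from counts of 0 cover counting error only.

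Cpe (ENSRNOG00000043387), the carboxypeptidase that acts after both convertases, ran from 4886 to 6635 CPM in siCtrl (median 5348) and from 4618 to 5771 CPM in siScrt1 (median 5364). Its medians were nearly equal, and its log2 fold change was -0.04 (SE 0.127, 95% interval -0.31 to 0.24, limma adjusted p = 0.939). The granins did not pass the test either. Chga (ENSRNOG00000052549) was at 1578, 1680, 2045, 1334 and 1428 CPM in siCtrl replicates 1 to 5 and at 1588, 2325, 2112, 1423 and 1425 CPM in siScrt1 replicates A to E. Only siScrt1 replicates B and C stood above the highest siCtrl library, and the log2 fold change was 0.16 (SE 0.176, 95% interval -0.22 to 0.54, limma adjusted p = 0.786) with all libraries and 0.05 without siScrt1 replicate B. Chga was higher in siScrt1 in 5 of 5 same-numbered pairs on the scaled counts, by 0.0078 to 0.61 on the log2 scale, and in 4 of 5 on CPM. The adjusted p with the number as a block was 0.426 in limma. Chgb (ENSRNOG00000021269) ran from 771 to 1044 CPM in siCtrl (median 959) and from 728 to 1157 CPM in siScrt1 (median 914), and its log2 fold change was 0.03 (SE 0.133, 95% interval -0.25 to 0.32, limma adjusted p = 0.951).

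Counted together, 0 of the 9 genes tested had an adjusted p under 0.05 in limma, against 1.05% of all genes, and 0 of 9 had an unadjusted p under 0.05, against 11.1% of all genes. With the library number as a block the count was again 0 of 9, against 2.0% of all genes, and on transcripts it was 0 of 9, against 0.415% of 17585 transcripts. None of the 9 had CPM values that did not overlap between the groups, whereas 2.96% of all genes did. The log2 fold change was positive for 5 genes and negative for 4, with a median of 0.03 beside 0.0035 over all genes tested. The bounds, from the fit with group as the only term, differed between the genes. For Scg5 the 95% interval reached from 6.73% lower to 16.6% higher and for Pcsk1 from 20.9% lower to 3.16% higher, whereas for Ins2 it reached from 25.9% lower to 76.2% higher. The width for Ins2 also holds the limma variance trend, since its residual SD (0.323) was close to that of Chga (0.326). With the number as a block the SE was smaller, at 0.102 for Iapp, 0.0909 for Chga and 0.0626 for Chgb. For Iapp the 95% interval of the log2 fold change was then -0.38 to 0.08.

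**Figure D2:**
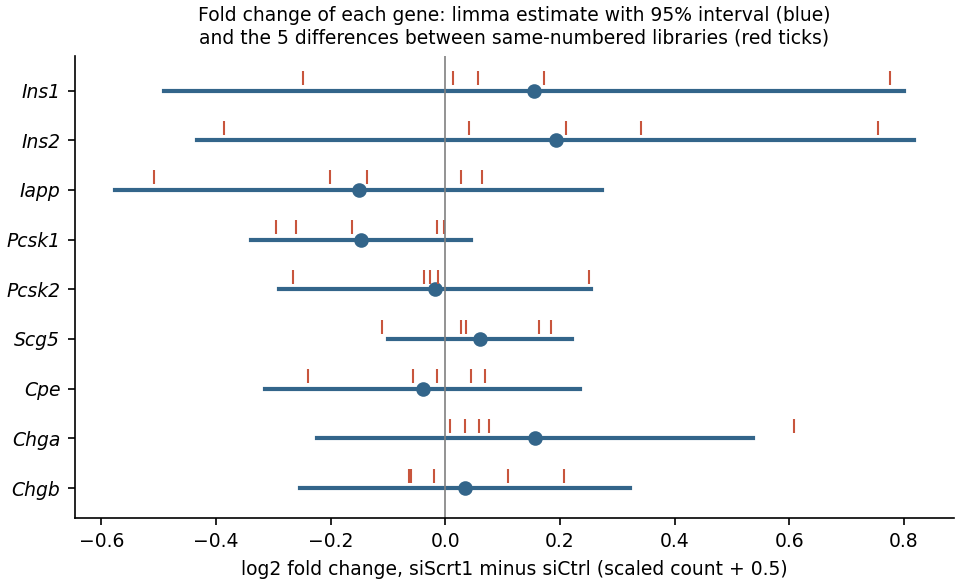
Log2 fold change of the 9 tested genes, siScrt1 minus siCtrl, on log2(scaled count + 0.5); blue points and lines are the limma estimate and its 95% interval, and red ticks are the 5 differences between same-numbered libraries. Every interval contains 0. The insulin genes have the widest limma intervals, although the residual SD of Chga is larger, and Scg5 has the narrowest. All 5 ticks lie below 0 for Pcsk1 and above 0 for Chga.

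Ratios within a library do not depend on its scaling, and 4 of them were compared with exact two-sided permutation tests of log2 ratios, adjusted over the 4. The ratio of Pcsk1n to Pcsk1 was also planned and has no value because Pcsk1n was at 0. The ratio of Iapp to both insulin genes (TPM) was 0.0898, 0.110, 0.0770, 0.0510 and 0.0609 in siCtrl replicates 1 to 5 and 0.0768, 0.0587, 0.0671, 0.0488 and 0.0523 in siScrt1 replicates A to E. It was lower in siScrt1 in 5 of 5 same-numbered pairs, and the groups overlapped. The siCtrl mean was 0.0777 ± 0.0233 and the siScrt1 mean 0.0607 ± 0.0114 (SD over 5 libraries), a log2 difference of -0.32 with an exact permutation p of 0.190 (adjusted 0.561). The difference was -0.18 without siCtrl replicate 2 and -0.46 without siCtrl replicate 4. With the libraries paired by number the exact permutation p was 0.0625, the smallest that 5 pairs can give, and 0.25 after adjustment. Both hormone levels entered this ratio, and neither passed the test on its own.

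The other ratios differed by less than the spread between libraries. Ins1 to Ins2 was 1.30 ± 0.097 (siCtrl) and 1.26 ± 0.114 (siScrt1; SD over 5 libraries; exact permutation p = 0.587). Pcsk1 to Pcsk2 was 0.562 ± 0.0564 in siCtrl and 0.516 ± 0.0756 in siScrt1 (exact permutation p = 0.333, adjusted 0.561), and siScrt1 replicate B was the lowest of all libraries at 0.401. Scg5 to Pcsk2, the chaperone to its convertase, was 1.18 ± 0.101 in siCtrl and 1.25 ± 0.137 in siScrt1 (exact permutation p = 0.421, adjusted 0.561), and it was higher in siScrt1 in 4 of 5 pairs.

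**Figure D3:**
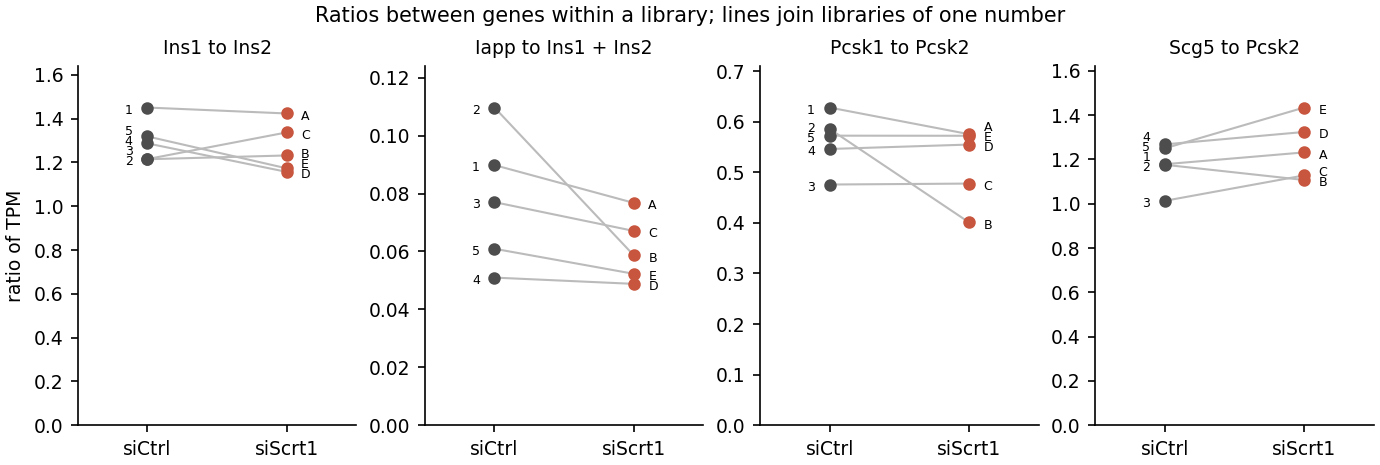
Ratios of TPM between genes within each library (vertical axes start at 0); points are libraries marked by replicate and grey lines join libraries that carry the same number in the deposited table. The lines of Iapp to Ins1 + Ins2 slope down in 5 of 5 pairs, from 0.0510 to 0.110 in siCtrl and from 0.0488 to 0.0768 in siScrt1.

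The share of insulin reads moved with the depth of the library. The insulin genes took 9.38% of reads in siScrt1 replicate A, the shallowest library, and 8.88% in siCtrl replicate 2, the next shallowest, but 15% in siCtrl replicate 3 and 13.7% in siScrt1 replicate B, the deepest of their groups. Over the 10 libraries, log2 CPM correlated with log2 depth for Ins2 (Pearson r = 0.88, permutation p = 0.00113, adjusted 0.0102 over 9 genes; Spearman rho = 0.87, permutation p = 0.00249, adjusted 0.0112) and for Ins1 (r = 0.82, permutation p = 0.00416, adjusted 0.0187; rho = 0.89, permutation p = 0.00106, adjusted 0.0095). Without the 2 libraries farthest from the median depth, r was 0.89 for Ins2 and 0.83 for Ins1, and with insulin reads taken out of the depth it was 0.82 and 0.75. For Scg5 r was 0.69 (adjusted permutation p = 0.0859), for Pcsk2 0.65 (adjusted 0.0927), for Iapp 0.16 (adjusted 0.736) and for Pcsk1 -0.30 (adjusted 0.508). Depth spanned 12975086 to 16452119 reads in siCtrl and 11901342 to 17444034 reads in siScrt1. With log2 depth as a further term, an alternative chosen after seeing the data, the log2 fold change was 0.09 for Ins1 (SE 0.26) and 0.11 for Ins2 (SE 0.235). Groups of 5 libraries are too small for a correlation within each. The permutations treated the 10 libraries as independent and did not keep same-numbered libraries together. What ties insulin reads to depth was not tested.

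**Figure D4:**
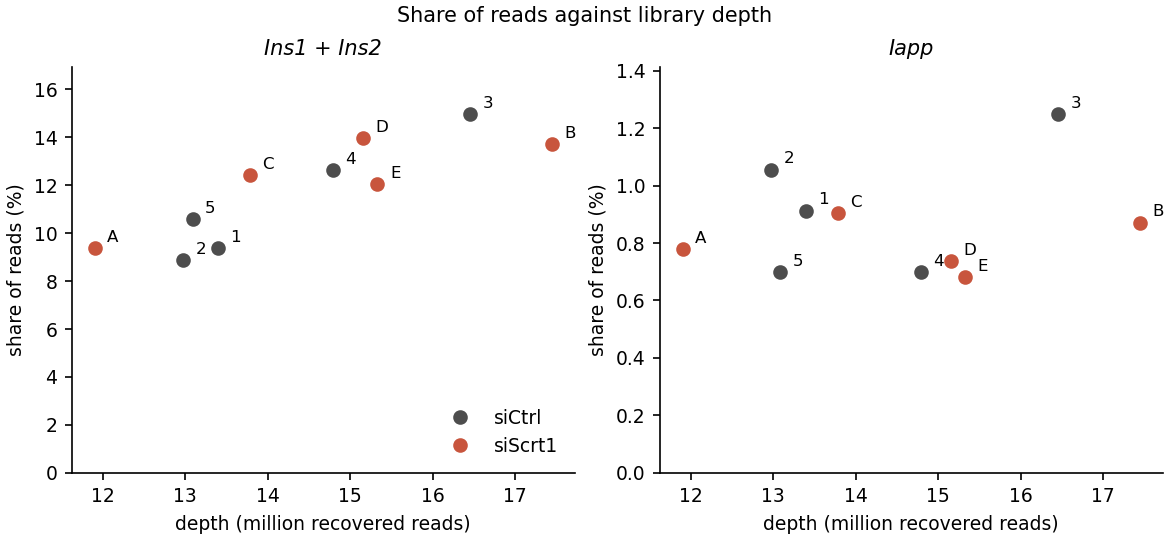
Share of reads taken by Ins1 + Ins2 (left) and by Iapp (right), in percent, against library depth in recovered reads (divided by 1e6 on the axis); each point is 1 library, grey for siCtrl and red for siScrt1, marked by replicate. The insulin share goes from 8.88% to 15% and is higher in the deeper libraries of both groups, whereas the Iapp share, from 0.682% to 1.25%, shows no such order.

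The genes did not vary as 1 block between libraries. Of the 36 pairs among the 9 genes, 12 had a Pearson correlation of log2 scaled counts with an adjusted permutation p under 0.05. All 12 were positive. By Spearman correlation, only Ins2 and Scg5, Ins1 and Ins2, Pcsk2 and Cpe, and Chga and Chgb had an adjusted permutation p under 0.05. The share of such pairs among other genes is not given here, so that the count is no result about these genes. Ins1, Ins2 and Scg5 varied together over the 10 libraries, with r = 0.95 for Ins2 and Scg5 (permutation p = 0.00015, adjusted 0.0027; rho = 0.93, permutation p = 0.00049, adjusted 0.00882), 0.94 for Ins1 and Ins2 (permutation p = 4e-05, adjusted 0.00144; rho = 0.94, permutation p = 0.00029, adjusted 0.00882) and 0.85 for Ins1 and Scg5 (permutation p = 0.00134, adjusted 0.0161; rho = 0.81, permutation p = 0.00753, adjusted 0.0542). Without the 2 libraries farthest from the median these were 0.92, 0.94 and 0.80. Here and below, these 2 libraries were chosen on the level of 1 gene of the pair alone. They can therefore differ between pairs, and the extremes of the other gene were not considered. After centring on the group means they were 0.95, 0.94 and 0.84. By Pearson correlation Pcsk2 passed with Chga (r = 0.81, adjusted permutation p = 0.0379), Iapp (0.78, adjusted 0.0443) and Chgb (0.74, adjusted 0.0453). By Spearman correlation none of these passed, with adjusted permutation p of 0.355, 0.355 and 0.0746. Without 2 libraries the Pearson r of these pairs was 0.72, 0.53 and 0.82. Pcsk2 and Cpe, which act in sequence on the same precursors, had r = 0.90 (permutation p = 0.00275, adjusted 0.0247; rho = 0.83, permutation p = 0.00467, adjusted 0.042), and 0.83 without 2 libraries. Pcsk2 also passed with Ins1 (r = 0.73, permutation p = 0.0151, adjusted 0.0453; rho = 0.67, permutation p = 0.0392, adjusted 0.157), whereas Cpe did not pass with Chga (0.62, adjusted permutation p = 0.107) or Chgb (0.60, adjusted 0.136), at 0.31 and 0.15 without 2 libraries.

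The correlations of Iapp passed the test with the granins and did not with insulin. Its r was 0.76 with Chgb (permutation p = 0.00973, adjusted 0.044; rho = 0.72, permutation p = 0.0229, adjusted 0.118) and 0.74 with Chga (permutation p = 0.0145, adjusted 0.0453; rho = 0.67, permutation p = 0.0385, adjusted 0.157), and 0.79 and 0.63 without 2 libraries. With Cpe r was 0.78 (permutation p = 0.00978, adjusted 0.044; rho = 0.59, permutation p = 0.0799, adjusted 0.262). It was 0.46 without the 2 libraries farthest from the median of Iapp, so that this value leans on those. With Ins1 it was 0.22 (permutation p = 0.545, adjusted 0.727; rho = 0.05, permutation p = 0.891, adjusted 0.972) and with Ins2 0.16 (permutation p = 0.667, adjusted 0.775; rho = -0.006), and without 2 libraries these were 0.08 and 0.54. Correlations were not compared with each other. Chga and Chgb had r = 0.83 (permutation p = 0.00365, adjusted 0.0263; rho = 0.83, permutation p = 0.00456, adjusted 0.042), and 0.79 without 2 libraries. None of the 12 pairs included Pcsk1, whose r with the other 8 genes ran from -0.17 (Ins2) to 0.54 (Iapp). This range pools both groups. The sign was positive for 8 of 8 genes over the siCtrl libraries and negative for 8 of 8 over the siScrt1 libraries, there from -0.29 (Chgb) to -0.77 (Pcsk2). The 8 signs of a group share the same Pcsk1 values and are not independent. Groups of 5 are too small for a correlation of their own, and the difference between the groups was not tested. The points share library, depth and the scaling of counts between libraries. The permutation p-values of these pairs treat the 10 libraries as independent, although the numbers were taken to pair them.

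**Figure D5:**
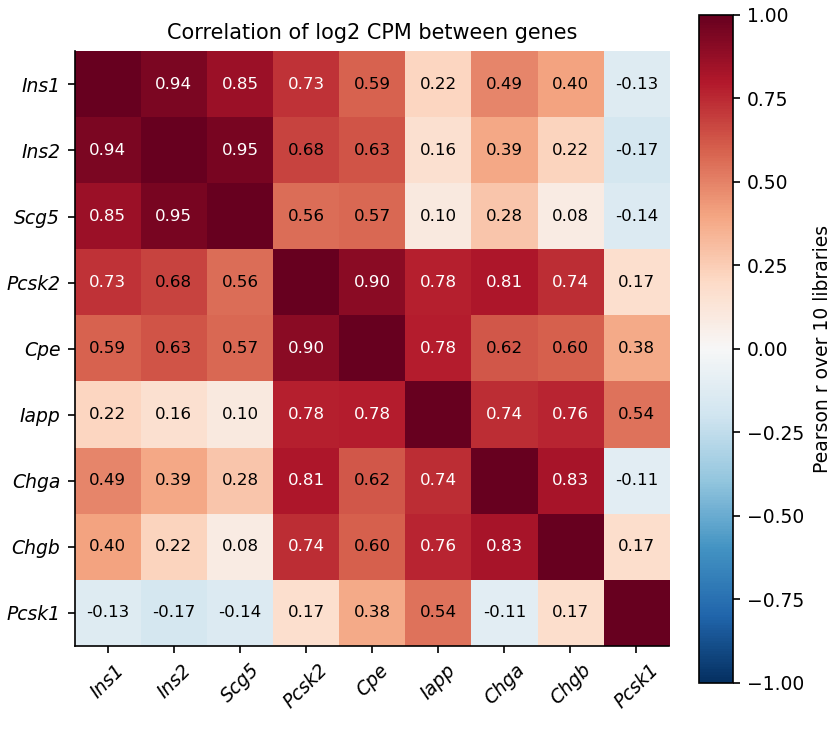
Pearson r of log2 scaled counts between the 9 detected genes over the 10 libraries, from -1 (blue) to 1 (red), with the value in each cell. The title of the picture names CPM, but the values come from scaled counts. Among Ins1, Ins2 and Scg5 the values are 0.85 to 0.95, and among Pcsk2, Cpe, Iapp, Chga and Chgb they are 0.60 to 0.90. The order of genes was set by hand and no clustering was run. These sets are not separate, since Ins1 and Pcsk2 (0.73) and Ins2 and Pcsk2 (0.68) exceed Cpe and Chgb (0.60). Pcsk1 has values of -0.17 to 0.54 over both groups pooled.

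The genes most like the sum of Ins1 and Ins2 were sought among the 3607 genes whose mean was 50 CPM or more, by Pearson r of log2 CPM after centring on the group means, over 10 libraries. They were Fkbp8, a membrane-anchored immunophilin (r = 0.98), Fuca1, a lysosomal fucosidase (0.96), Wdr6 (0.96), Tmem109 (0.95) and Uqcrc1, a core subunit of respiratory complex III (0.94). None of the 5 had an adjusted p under 0.05 between the groups in limma, and the lowest was 0.429, for Wdr6.

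The neighbours of these genes in the pathway were read from 5 lists of 54 genes in all, of which 53 were in the table and 51 were tested. None rose and none fell at an adjusted p under 0.05 in limma, and 6 of 51 had an unadjusted p under 0.05, against 11.1% of all genes. The median log2 fold change of the 51 genes was -0.01. The 8 tested transcription factors of the insulin genes included 3 of those 6. Pdx1, the homeodomain activator of insulin, was at 162 to 237 CPM in siCtrl and 203 to 270 CPM in siScrt1, and 4 of 5 siScrt1 libraries stood above every siCtrl library (log2 fold change 0.35, SE 0.103, adjusted p = 0.176 in limma). Mafa, which acts on the insulin promoters in mature β-cells, was at 285 to 479 CPM in siCtrl and 426 to 660 CPM in siScrt1 (log2 fold change 0.37, SE 0.166, limma adjusted p = 0.437). For Nkx6-1, a β-cell identity factor, the log2 fold change reached 0.17 (SE 0.0666, limma adjusted p = 0.363).

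Among the 13 other granule proteins, 1 had an unadjusted p under 0.05 and the median log2 fold change was -0.07. It was Scgn, a calcium sensor, at 277 to 395 CPM in siCtrl and 244 to 322 CPM in siScrt1 (log2 fold change -0.25, SE 0.093, limma adjusted p = 0.311). Sytl4, or granuphilin, which docks granules, had -0.14 (limma adjusted p = 0.456), and the granin Scg3 had -0.21 (adjusted p = 0.551 in limma). Of the 12 other processing enzymes tested, 2 had an unadjusted p under 0.05, namely Ide, the insulin-degrading enzyme (log2 fold change -0.18, limma adjusted p = 0.429), and Pcsk4, which was at 1.32 CPM in siCtrl and 2.02 CPM in siScrt1 on average (0.68, limma adjusted p = 0.443). Furin, the convertase of the constitutive pathway, had 0.17 (limma adjusted p = 0.544). Proinsulin folding was the quietest list, with 0 of 9 genes at an unadjusted p under 0.05, log2 fold changes from -0.09 to 0.03 and a lowest limma adjusted p of 0.853. These included Hspa5 (-0.09), the chaperone BiP, Pdia6 (-0.06) and Ero1b (-0.05), an oxidase of the endoplasmic reticulum. Granule acidification and zinc loading held 0 of 9 genes at an unadjusted p under 0.05, with log2 fold changes from -0.13 (Clcn3, a chloride-proton exchanger) to 0.01, -0.12 for the proton pump subunit Atp6v1b2 and -0.08 for the zinc transporter Slc30a5.

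Granins, Cpe and both convertases are made in other endocrine islet cells too, and in bulk RNA a smaller number of such cells cannot be told apart from less RNA in each. The 6 α-cell markers summed to 1443 to 1759 CPM in siCtrl and 1324 to 1577 CPM in siScrt1 (exact permutation p = 0.103, n = 5 each), almost all of it from Gc, Slc7a2 and Gcg, which codes for glucagon and reached 206 to 579 CPM. Irx2, a transcription factor of α-cells, was at most at 1.12 CPM. The 6 δ- and PP-cell markers summed to 19.7 to 84.7 CPM in siCtrl and 22.9 to 90.9 CPM in siScrt1, the 8 acinar markers to at most 0.672 CPM, the 4 duct markers to at most 7.11 CPM, the 3 endothelial markers found to at most 0.686 CPM and the 5 immune markers to at most 4.53 CPM. The 6 mesenchymal markers were highest in both libraries numbered 4, at 16.8 CPM (siCtrl) and 30.6 CPM (siScrt1 replicate D). In the libraries numbered 4, Pcsk1 was at 2439 CPM (siCtrl replicate 4) and 2462 CPM (siScrt1 replicate D). Of 3 neural and Schwann cell markers, Sox10 and Gfap were listed at 0 in all 10 libraries. The part of any of these in the levels of the 10 genes was not tested.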

How the data were processed

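Gene expression was measured by single-end RNA-seq of 10 libraries, 5 siCtrl and 5 siScrt1, grouped by their genotype labels. According to the methods and the submitters' processing notes, reads passed FastQC and Trimmomatic and were assigned to the Rnor6 transcriptome with kallisto and scaled with sleuth (no versions given). The deposited table holds estimated counts and TPM that the authors scaled between libraries, a signal and not raw counts, beside transcript lengths and effective lengths of another kind, which entered no test. Rows without values (9363) were left out. Division by the value of 1 read in each library returned recovered reads (11901342 to 17444034 per library). Of the values above 0, 50.3% of transcripts and 76.2% of genes were whole within 0.01 read, since kallisto splits shared reads, and no count model was used.

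Scaled counts were summed per Ensembl gene and log2(value + 0.5) was tested with limma 3.58.1 in R 4.3.3 (lmFit, eBayes with trend, group as the only term). Fold changes on this scale understate changes of low genes. Genes needed 15 reads in total and, in 5 libraries, the CPM to which 10 reads amount at the median depth, which kept 12941 of 23918. Transcripts needed 5 reads in 47% of libraries (17585 kept). Adjusted p-values are Benjamini-Hochberg values over all features, with a threshold of 0.05. CPM and ratios were compared with exact two-sided permutation tests over all 252 divisions of the libraries (smallest p 0.00794), and correlations with 100000 permutations. Both ignore the library numbers, except where a paired p is named. Python 3.11.15, NumPy 2.4.6, pandas 2.3.3, SciPy 1.17.1, Biopython 1.88 (promoter alignment), data.table (version 1.17.8) and matplotlib 3.10.9 were used. The fits were tested on simulated data.

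The genes, the pathway and marker lists and the naming rule were chosen with earlier results of these data known. Named genes were the 10 genes, Scrt1, per pathway list those with an adjusted p under 0.05 and otherwise the smallest p up to 3, and the 5 genes most like the sum of Ins1 and Ins2. The authors numbered the libraries 1 to 5 in each group of the deposited file without saying what a number marks. Deviations from the group means correlated at 0.131 to 0.351 in the 5 same-numbered pairs and at -0.179 to 0.167 in others, so the numbers were taken to pair the libraries. The pair numbered 2 is the least certain. Its siScrt1 replicate B correlated at 0.131 with siCtrl replicate 2 and at 0.167 with siCtrl replicate 3. This pair gave the largest log2 differences of Ins1 (0.78), Ins2 (0.75) and Chga (0.61). Alternatives were other scalings, filters, pseudocounts and TPM, limma-voom on recovered reads, the number as a block, leaving out libraries, and log2 depth as a term (chosen after seeing the data). Promoters and gene starts are from RefSeq GRCr8; no coordinates of the authors' build are given. The value of 1 marker gene is not reported here.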

Additional observations from a re-analysis of the deposited data

How the results depend on the processing

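Over the 23 alternatives of the gene fit, 0 of the 9 genes tested had an adjusted p under 0.05 in limma in each of them, with adjusted p from 0.347 (Pcsk1, library number as a replicate block) to 0.999. Ins1, Ins2, Chga and Scg5 stayed positive, and Iapp and Pcsk1 negative, in all 23. With 1 library left out in turn, the log2 fold change ranged from -0.065 to 0.075 for Pcsk2, from -0.077 to 0.049 for Cpe and from -0.051 to 0.12 for Chgb, and the log2 difference of Ins1 to Ins2 from -0.082 to 0.0027, so that these changed sign. Without siCtrl replicate 3 it was 0.075 for Pcsk2 and 0.049 for Cpe. Pcsk2 was also positive without siScrt1 replicate A (0.0091) or E (0.015), Chgb negative without siCtrl replicate 5 (-0.038) or siScrt1 replicate C (-0.051), and Ins1 to Ins2 positive without siCtrl replicate 1 (0.0027). The number of genes called among all genes was 259 with the replicate block, and the block changed no call of the 10 genes. That number was 25 without both libraries numbered 4, where Scrt1 was at -1.82 (limma adjusted p = 0.062), and 110 without both numbered 1; the cause was not tested. It was 62 to 133 with 1 library left out, with 81 and 77 without siCtrl replicates 4 and 5 and 83, 87, 62 and 64 without siScrt1 replicates B, C, D and E. The unadjusted exact permutation p of Pcsk1 on CPM ran from 0.00794 (without siScrt1 replicate D) to 0.0476 over the 12 alternatives of that test. With all libraries it was 0.0397 on scaled counts and 0.0556 on TPM. The limma SE of the insulin genes (0.298 and 0.289) exceeded those of Iapp (0.197) and Chga (0.176), although their residual SDs were 0.271 and 0.323 against 0.321 and 0.326. That SE is moderated by a variance trend with level over all genes, so that it does not reflect the residual SD alone.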
